A study of Mus musculus with 6 samples.

Results

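Dividing cells of every type were collected from single-cell RNA-Seq libraries of mouse islets, and 285 of 27004 cells belonged to them. Cells were selected on their own transcripts. A cell was taken as dividing when at least 3 of 6 cell cycle genes, *Mki67*, *Top2a*, *Ccnb1*, *Cdk1*, *Birc5*, and *Ube2c*, each had at least 1 unique molecular identifier (UMI), the tag that marks a single captured mRNA molecule. The values that chose the cells are therefore described below without a test. The 6 libraries came from C57/BL6 mice aged 12 to 14 weeks, 1 library per mouse, with 3 wild type (WT) mice and 3 beta14-3-3 knock out (KO) mice. KO mice carried *Ywhaz*, the gene of 14-3-3ζ, with exon 4 between LoxP sites, together with *Ins1*-CreThor, a Cre recombinase expressed from the insulin gene *Ins1*, so the deletion was limited to β cells. Littermates carrying the same Cre served as WT. Islets recovered overnight and were dispersed, dead cells were removed, and 3′ ends of transcripts were sequenced, so the tags need not cover the deleted exon.

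A cell that divides first copies its DNA in S phase, with replication proteins such as PCNA and newly made histones, and then condenses and separates its chromosomes in G2 and mitosis. Cyclin-dependent kinases (CDKs) drive these steps, and CDK inhibitors such as p21, the product of *Cdkn1a*, hold them back. β cells, which make insulin, rarely divide in adult mice, whereas B and T lymphocytes divide in bursts after they meet antigen. Of the 6 genes that chose the cells, *Cdk1* and *Ccnb1* encode the kinase and the cyclin that start mitosis, *Top2a* encodes a topoisomerase that untangles sister chromosomes, *Birc5* encodes survivin of the chromosomal passenger complex, *Ube2c* encodes a ubiquitin-conjugating enzyme of the anaphase-promoting complex, and *Mki67* encodes Ki-67, which coats mitotic chromosomes. All 6 transcripts are most abundant in G2 and mitosis, so cells in G1 or early S phase could escape the selection.

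Promoters of these genes are shown because many genes of late cell division share short promoter motifs: the CCAAT box, which NF-Y binds, and the CHR element TTTGAA, which the MuvB complex binds. The 120 bases before the start of 4 of the 6 genes read as follows, 5′ to 3′ in the direction of the gene, with every CCAAT or TTTGAA on either strand in capitals (RefSeq, GRCm38.p6).
Mki67, chr7:135716380-135716499, minus strand: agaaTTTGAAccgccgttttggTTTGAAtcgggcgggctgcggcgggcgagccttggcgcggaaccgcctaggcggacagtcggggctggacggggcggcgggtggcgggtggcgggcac
Top2a, chr11:99024190-99024309, minus strand: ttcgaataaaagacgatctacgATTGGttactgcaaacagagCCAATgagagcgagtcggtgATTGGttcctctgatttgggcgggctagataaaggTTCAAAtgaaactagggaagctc
Cdk1, chr10:69352913-69353032, minus strand: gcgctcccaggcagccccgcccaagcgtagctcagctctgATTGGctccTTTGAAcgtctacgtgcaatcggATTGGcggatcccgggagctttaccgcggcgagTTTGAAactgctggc
Ube2c, chr2:164769809-164769928, plus strand: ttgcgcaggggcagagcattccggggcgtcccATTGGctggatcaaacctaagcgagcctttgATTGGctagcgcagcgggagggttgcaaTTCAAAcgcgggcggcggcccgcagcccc
*Mki67* held 2 CHR elements and no CCAAT in this window, *Top2a* held 3 CCAAT boxes and 1 CHR element, *Cdk1* held 2 and 2, and *Ube2c* held 2 and 1. Over the 250 bases before the start, 4 of the 6 genes held both motifs, *Ccnb1* held CCAAT alone, and *Birc5* held neither sequence. Both motifs were found in 6.45% of all 27025 genes with a promoter in the table, CCAAT in 37.5%, and TTTGAA in 18.3%. The G2/M list, 83 genes named for their role in late division and not including the 6, had promoters for 67 genes. CCAAT was present in 74.6%, TTTGAA in 38.8%, and both in 35.8% of them. Among 64 matched genes of oxidative phosphorylation (OXPHOS), both were present in 4.69%. These matches describe letters in a window, and the motifs do not overlap each other.

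Each library held between 1867 and 8181 cells that passed the filters (at least 500 detected genes and at most 10% mitochondrial UMIs), from 74083947 to 98294915 UMIs in all its barcodes. Dividing cells numbered 9, 144, and 10 in the WT libraries and 13, 93, and 16 in the KO libraries, in the order of their numbers, which is 0.327% to 1.76% of a library. The libraries numbered 2 stood apart, with the most barcodes in each genotype and 237 of the dividing cells. The deletion was seen in nondividing insulin-rich cells, where *Ywhaz* stood at 126, 166, and 161 counts per 1000000 UMIs (CPM) in the WT group and at 24.3, 35.8, and 24.0 CPM in the KO group. Barcodes found in more than 1 library numbered 84, and none of the dividing cells carried one. A doublet caller marked 12 dividing cells, 11 of them in WT library 2.

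The values that chose the cells were far apart in members and nonmembers, as the rule requires. *Mki67* had a UMI in 93.7% of the 285 cells and stood at 546 CPM, against 1.12% of cells and 1.07 CPM in the rest. *Ccnb1* was the sparsest of the 6, with a UMI in 60.7% of the members. All 6 genes were present in 110 cells, 5 in 69, 4 in 65, and 3 in 41, and the 95 cells just outside the rule had 2. Cells with 2, 3, and 6 of the genes had medians of 15191, 17100, and 29473 UMIs, so members with all 6 were also the deepest. Mesenchymal members had a different mix: *Cdk1* had a UMI in 14 of 14 cells and *Ccnb1* in 2, whereas in insulin-rich members *Cdk1* had a UMI in 22 of 34 cells and *Ccnb1* in 17.

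The dividing cells were mostly lymphocytes. Lineage was read from marker panels, each counted as present when more than 50% of its genes had a UMI, and cells with no panel and at least 10% of UMIs on *Ins1* and *Ins2* were called insulin-rich. B cells made up 146 of the 285, insulin-rich cells 34, T cells 33, mesenchymal cells 14, macrophages 3, glucagon-rich cells 2, and somatostatin-rich cells 1. A further 22 cells carried insulin with another panel, 20 carried several panels, and 10 carried none. Doublet calls fell on 6 of the 22, 4 of the 20, 1 T cell, and 1 glucagon-rich cell, and on none of the B, mesenchymal, or insulin-rich members. None of 1074 endothelial cells was dividing, which allows a share of up to 0.279% by a floor of 3 cells (exact 95% upper limit 0.343%), and none of 218 ductal cells was, which allows up to 1.38% by the same floor (exact 95% upper limit 1.68%).

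Single genes of the panels are given as a description, since the panels assigned the lineage. *Cd79a*, a chain of the B cell receptor complex, had a UMI in 146 of 146 dividing B cells, *Cd3e* of the T cell receptor complex in 33 of 33 T cells, and *Col1a1* in 14 of 14 mesenchymal cells. The β cell factors *Mafa*, *Nkx6-1*, and *Pdx1* had a UMI in 30, 33, and 29 of 34 insulin-rich cells. *Rgs5*, a pericyte gene, was found in only 4 of the 14 mesenchymal cells. RNA of other lineages was also present: the 9 genes of the β cell panel took a median of 2.52% of UMIs in dividing B cells (range 0.300% to 11.2%), 3.99% in T cells, and 1.70% in mesenchymal cells. In insulin-rich members, the B cell panel had a median of 0 and a maximum of 0.102% of UMIs. One insulin-rich member had 5.999% of its UMIs on the δ cell panel.

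The share of cells in division, pooled over libraries, was lowest in insulin-rich cells among the 4 lineages with most members. Over all libraries, dividing cells were 9.10% of 1604 B cells (exact 95% interval 7.74% to 10.6%), 4.32% of 764 T cells (2.99% to 6.01%), 13.1% of 107 mesenchymal cells (7.34% to 21.0%), and 0.209% of 16294 insulin-rich cells (0.145% to 0.291%). These intervals cover counting error only. Depth differed between the lineages, since nondividing B cells had a median of 5617 UMIs and insulin-rich cells 3458. With every cell reduced to 5000 UMIs and shallower cells left out, the expected share was 10.3% of 1052 B cells, 4.60% of 474 T cells, 4.42% of 107 mesenchymal cells, and 0.170% of 7332 insulin-rich cells. The pooled order rests on the libraries numbered 2. There, 10.8% of 1328 B cells, 4.69% of 597 T cells, 17.9% of 78 mesenchymal cells, and 0.0529% of 7560 insulin-rich cells were dividing. In the other 4 libraries, the shares were 1.09% of 276 B cells (0.225% to 3.14%), 2.99% of 167 T cells (0.979% to 6.85%), 0 of 29 mesenchymal cells, and 0.343% of 8734 insulin-rich cells (0.232% to 0.490%), so the intervals of B and insulin-rich cells overlapped.

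The libraries numbered 2 held nearly all of the dividing B and mesenchymal cells. Of 146 dividing B cells, WT library 2 held 95 and KO library 2 held 48, or 10.7% and 10.8% of the B cells of each. In WT library 1, 3 of 197 B cells were dividing (1.52%), and in the other 3 libraries, 0 of 18, 11, and 50. For mesenchymal cells, 6 of 46 were dividing in the WT library of that number, 8 of 32 in its KO counterpart, and 0 of 29 elsewhere. T cells were more widely spread, with 9 of 244 and 19 of 353 cells dividing in the libraries numbered 2, 4 of 54 in KO library 3, and 1 of 99 in WT library 1. Insulin-rich cells ran the other way: 4 of 7560 were dividing in the libraries numbered 2 and 30 of 8734 in the other 4. Cells with insulin and another panel are not in this count, and 17 of 3246 and 5 of 664 of them were dividing. With those cells added, WT and KO library 2 stood at 0.180% and 0.212%, against 0.283% to 0.514% in the other 4, so the size of the contrast depends on the panel rule. Because the pattern rests on 1 library of each genotype, its source cannot be told apart from the mice.

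**Figure D1:**
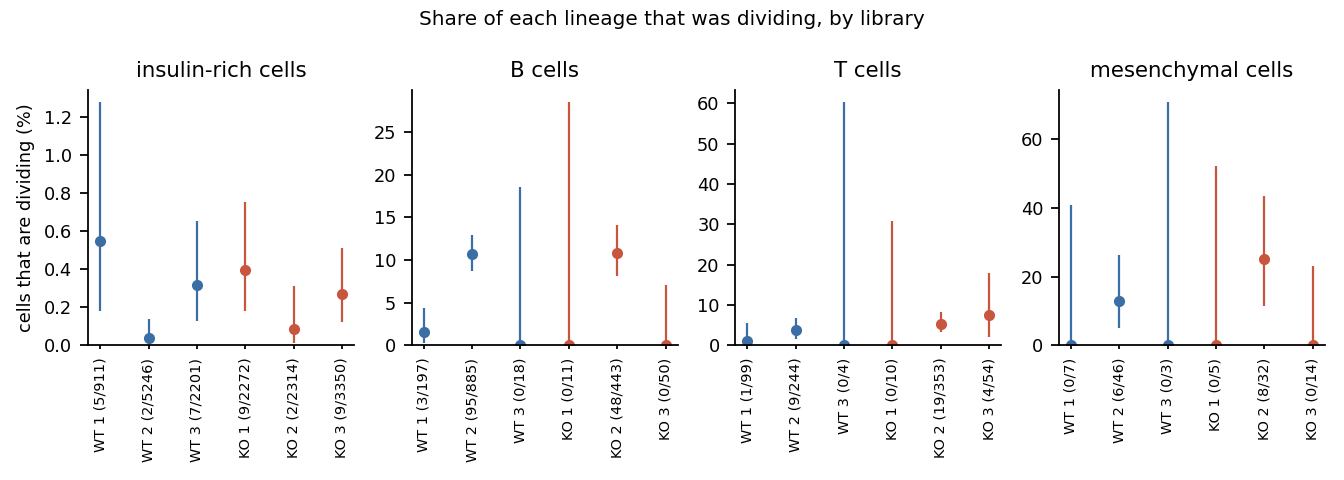
Share of each lineage that was dividing (vertical axis, percent, on a separate scale in each panel) in each library (WT in blue, KO in red), with exact 95% intervals as bars. Labels give dividing cells over all cells. B cells reached 10.7% and 10.8% in the libraries numbered 2, where insulin-rich cells were at their lowest, 0.0381% and 0.0864%.

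Whether loss of 14-3-3ζ changed the number of dividing β cells was a question of the study. In pancreatic sections it reported significantly more β cells stained for PCNA or Ki-67 protein in KO mice. Among its single-cell expression changes, proliferation genes were not enriched. Before that test the study had removed KO β cells with incomplete deletion of *Ywhaz*, whereas no KO cell was left out for *Ywhaz* here. Counted here by RNA in dispersed cells, an unlike measure, the share of insulin-rich cells in division did not differ between genotypes beyond the spread between mice. WT libraries, in the order of their numbers, had 0.549%, 0.0381%, and 0.318% (5 of 911, 2 of 5246, and 7 of 2201 cells), and KO libraries had 0.396%, 0.0864%, and 0.269% (9 of 2272, 2 of 2314, and 9 of 3350 cells). All 3 KO values lay within the WT range. The mean was 0.302% ± 0.256 (SD, n = 3) in WT and 0.250% ± 0.156 (SD, n = 3) in KO, a difference of -0.0513 percentage points (2-sided exact permutation test, p = 0.8, where 3 against 3 can reach 0.1 at the lowest). Compared within pairs of the same number, the exact permutation p was 0.5, and 3 pairs cannot reach a low p. The sign of the difference was not stable: it became 0.0723 without WT library 1 and 0.0307 without KO library 2, and 0.0287 when cells with 2 of the 6 genes were counted.

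Depth differed between libraries, with medians of 2486 to 41648 UMIs in nondividing insulin-rich cells. Among insulin-rich cells of at least 20000 UMIs, a setting chosen after the data were seen, 5 of 811, 0 of 831, and 7 of 866 were dividing in the WT group and 9 of 1139, 0 of 802, and 9 of 1031 in the KO group. That is 0.617%, 0%, and 0.808% in WT and 0.790%, 0%, and 0.873% in KO (exact p = 0.8). Of 1633 such cells in the libraries numbered 2, none was dividing, which gives an exact 95% upper limit of 0.226%, against 0.780% (0.527% to 1.11%) of 3847 in the other 4 libraries. Cells with insulin and another panel are outside this count. At the same depth, 12 of 239 of them were dividing in the libraries numbered 2 and 5 of 278 in the other 4. The contrast therefore depends on the panel rule. Thinned to 5000 UMIs per cell, the difference between genotypes in insulin-rich cells was -0.00283 percentage points (exact p = 0.9).

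**Figure D2:**
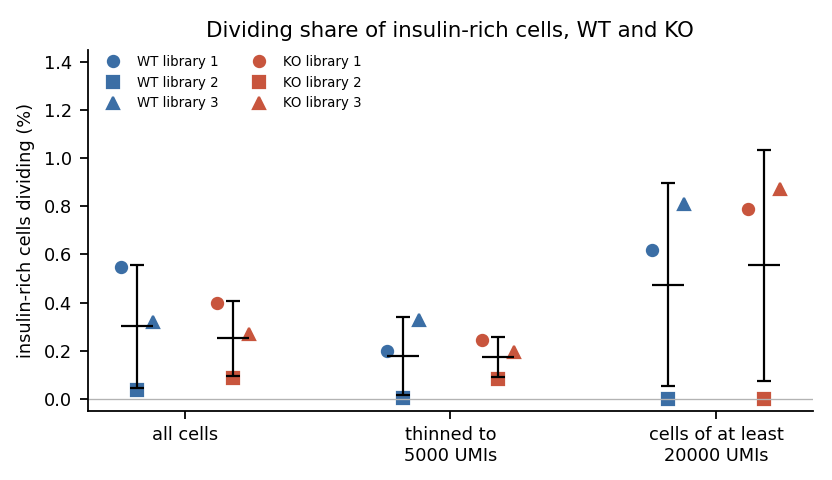
Percentage of insulin-rich cells that were dividing (vertical axis) in each WT (blue) and KO (red) library, counted in all cells, after thinning to 5000 UMIs, and in cells of at least 20000 UMIs. Black bars give the mean and SD of 3 libraries. WT and KO values overlap in each setting, and both libraries numbered 2 (squares) lie lowest.

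The 4 insulin-rich members of the libraries numbered 2 were unlike the other 30. They had 2975, 7486, 14669, and 14829 UMIs, and 1 of them carried 4655 UMIs of immunoglobulin genes and *Cd74*. The 30 others had 21241 to 112505 UMIs (median 65700), with 15.8% to 72.3% of UMIs on insulin (median 37.5%). *Cd79a*, *Cd3e*, or *Ptprc*, markers of blood cells, had at least 1 UMI in 9 of the 30. Only libraries with at least 5 members were used for genes, so gene comparisons in insulin-rich cells rest on these 30 cells of WT and KO libraries 1 and 3.

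Lineages differed in the balance of S phase and G2/M transcripts in their members. The S phase share, which is the share of a cell's UMIs on 50 S phase genes among those on the S phase and G2/M lists, had a median of 18.5% in insulin-rich members, 20.2% in B cells, 28.3% in T cells, and 42.1% in mesenchymal cells. It was under 20% in 22 of 34 insulin-rich cells and in 0 of 14 mesenchymal cells, and over 50% in 0 insulin-rich, 8 B, 1 T, and 2 mesenchymal cells. The mesenchymal values ran from 33.3% to 55.7% and the insulin-rich values from 6.35% to 35.2%, so they overlapped only between 33.3% and 35.2%. Replication histones, whose mRNA is made in S phase, exceeded 2000 CPM in 77 of 146 B cells, 25 of 33 T cells, 13 of 34 insulin-rich cells, and 2 of 14 mesenchymal cells. Between cells of a lineage, the S phase share did not rise with histone CPM. Spearman rho was -0.089 in insulin-rich, 0.060 in B, -0.172 in T, and -0.481 in mesenchymal cells. The share is therefore not read as a position in the cycle. In 9 insulin-rich cells, *Mki67* had at least 5 UMIs while *Top2a* had at most 2, and the reverse pattern was seen in 1. The G2/M list took the smallest share of UMIs in insulin-rich members, with a median of 6586 CPM. It stood at 15833 in B cells, 14600 in T cells, and 8368 in mesenchymal cells. CPM include insulin UMIs, a median of 36.7% in insulin-rich members against 2.26%, 3.46%, and 1.57% in the same order. Insulin-rich members also had more UMIs (median 59683 against 20214, 22014, and 28630), so CPM do not give RNA per cell. Cells of 1 library are not replicates, and all but 4 insulin-rich members came from other libraries than nearly all B and mesenchymal members, so these values are a description.

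**Figure D3:**
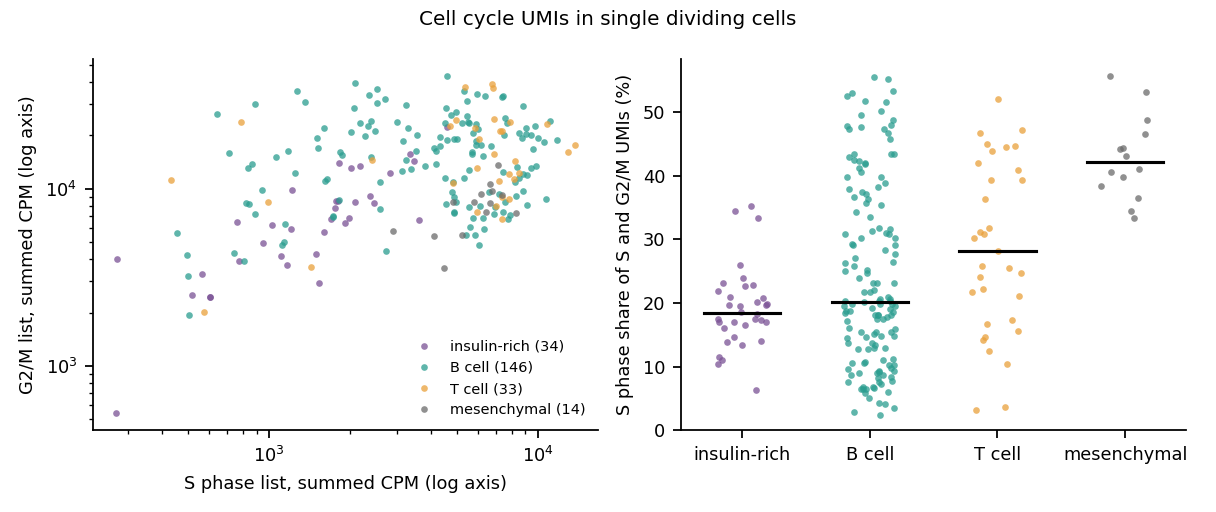
Left: summed CPM of the S phase list (horizontal, log axis) and of the G2/M list (vertical, log axis) in each dividing cell, colored by lineage, with numbers of cells in the key. Right: S phase share of S phase and G2/M UMIs in each cell, with the median as a line, at 18.5% in insulin-rich and 42.1% in mesenchymal cells.

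Dividing insulin-rich cells were compared with the other insulin-rich cells of the same libraries, by sums per library. Of 10847 genes tested, leaving out the 6 that chose the cells, 1004 were higher (9.26% of those tested) and 433 were lower (3.99%) by the quasi-likelihood test of edgeR, adjusted after Benjamini and Hochberg (adjusted p under 0.05 and absolute log2 fold change above 0.1, n = 4 libraries). All adjusted p values below come from this test. Because dividing cells were deeper, they were also compared with 10 cells nearest in UMIs for each member, which called 912 genes higher (8.13%) and 399 lower (3.56%) of 11221.

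Cell cycle lists served as a check of the label, since the cells were chosen on cycle genes. In insulin-rich cells, 47 of 49 tested S phase genes, 25 of 30 replication histones, and 81 of 83 G2/M genes were higher, with 1 histone lower. *Pcna*, the sliding clamp of DNA replication, stood at 142 and 107 CPM in dividing cells of WT libraries 1 and 3 and at 126 and 83.5 CPM in those of KO libraries 1 and 3, against 24.96, 31.7, 27.8, and 31.6 CPM in other cells. Dividing cells were higher in every library (log2 fold change 2.07 ± 0.20 SE, adjusted p = 4.07e-08). *Cenpf*, a kinetochore protein gene, had a mean of 128 against 0.327 CPM, and *Hmmr*, a spindle protein gene, 117 against 0.191 CPM. The histone that fell, *Hist1h1c*, is an H1 linker histone gene (149 against 241 CPM, log2 -0.68 ± 0.19 SE), and DESeq2 did not call it. The G2/M members that were not called were *Pttg1* (securin, log2 -0.38 ± 0.37 SE) and *Kpna2* (an importin, -0.18 ± 0.52 SE), which are named here after their values were seen.

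Several CDK inhibitor genes rose in dividing insulin-rich cells. Of 7 tested inhibitor genes, counted after their values were seen, 5 were higher, and *Cdkn1b* and *Cdkn2b* were not called. Of 19 tested genes of G1 cyclins, CDKs, and CDK inhibitors, 10 were higher and 0 lower (8 and 0 at matched depth). Over all genes, 9.26% were higher and 3.99% lower. The list also rose in dividing lymphocytes, with 12 of 16 genes higher and 2 lower in B cells (9 and 1 at matched depth). In T cells, 7 of 17 were higher and 2 lower, and in mesenchymal cells 1 of 19 was higher and 0 lower. *Cdkn1a* (p21) stood at 360 and 370 CPM in dividing insulin-rich cells of WT libraries 1 and 3 and at 547 and 332 CPM in KO libraries 1 and 3. In other insulin-rich cells of those libraries it stood at 149, 94.0, 107, and 97.1 CPM, so the groups did not overlap (log2 fold change 1.95 ± 0.14 SE, adjusted p = 3.80e-10, and 1.71 at matched depth). All 30 fitted cells carried *Cdkn1a*, and the 34 members ranged from 0 to 128 UMIs with a median of 8.5; 14 cells had at least 10 UMIs and 5 cells had at least 50. These 5 cells, 3 of which had 3 of the 6 selecting genes, held 438 of the 753 *Cdkn1a* UMIs of the members. The highest cell gave 58.6% and 57.2% of *Cdkn1a* UMIs in WT libraries 1 and 3 and 53.6% and 32.0% in KO libraries 1 and 3. Without that cell, dividing cells stood at 177, 172, 280, and 258 CPM of *Cdkn1a*, still above the other cells of each library but by less in WT library 1 (177 against 149 CPM). With at least 4 of the 6 genes required, the log2 fold change was 1.24. *Cdkn2c* (p18), an inhibitor of CDK4 and CDK6, stood at 59.2, 67.7, 57.2, and 51.2 CPM in the same order, against 6.84 to 10.6 CPM (log2 2.78 ± 0.23 SE). *Cdkn2d* (p19), of the same family, had a mean of 69.3 against 11.4 CPM (2.65 ± 0.26 SE). *Cdkn3*, a phosphatase that acts on CDK1 and is itself a G2/M transcript, had a mean of 19.4 against 0.0990 CPM.

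Several β cell genes were lower in dividing insulin-rich cells. Of 35 tested β cell identity genes, 14 were lower and 1 was higher (15 and 1 at matched depth). Over all genes, 3.99% were lower and 9.26% higher. The median log2 fold change of the list was -0.44 against -0.02 over all genes. *Mafa*, a transcription factor of mature β cells, stood at 49.7, 177, 195, and 334 CPM in dividing cells of WT libraries 1 and 3 and KO libraries 1 and 3, against 325, 610, 508, and 523 CPM in other cells. It was lower in each library, most of all in WT library 1 (log2 -1.45 ± 0.19 SE, adjusted p = 5.34e-06). *Chga*, the granule protein chromogranin A, stood at 1826, 2024, 1927, and 2601 CPM against 4429, 4038, 3731, and 3687 CPM (log2 -0.83 ± 0.13 SE). *Iapp*, the islet amyloid peptide secreted with insulin, had a mean of 25384 against 35249 CPM (log2 -0.38 ± 0.10 SE), and *Pcsk2*, a prohormone convertase, fell by 0.68 on the log2 scale (± 0.15 SE). The member that rose was *Nnat* (neuronatin, an imprinted gene), at 58.8 against 9.63 CPM, and 25% of its UMIs came from 1 cell.

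Both receptors of insulin-like signals on the growth signal list were lower. *Igf1r*, the receptor of insulin-like growth factor 1, stood at 61.6, 228, 199, and 256 CPM in dividing cells and at 354, 426, 504, and 443 CPM in other cells, in the same order (log2 -1.22 ± 0.18 SE, adjusted p = 1.77e-05). *Insr*, the insulin receptor, had a mean of 12.8 against 25.8 CPM (log2 -0.94 ± 0.28 SE, adjusted p = 0.0277) and was not called by DESeq2. *Ezh2*, a histone methyltransferase gene that is itself a target of the cell cycle, rose (68.4 against 5.64 CPM, log2 3.66 ± 0.28 SE). The other 10 of 13 tested genes of this list were not called.

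**Figure D4:**
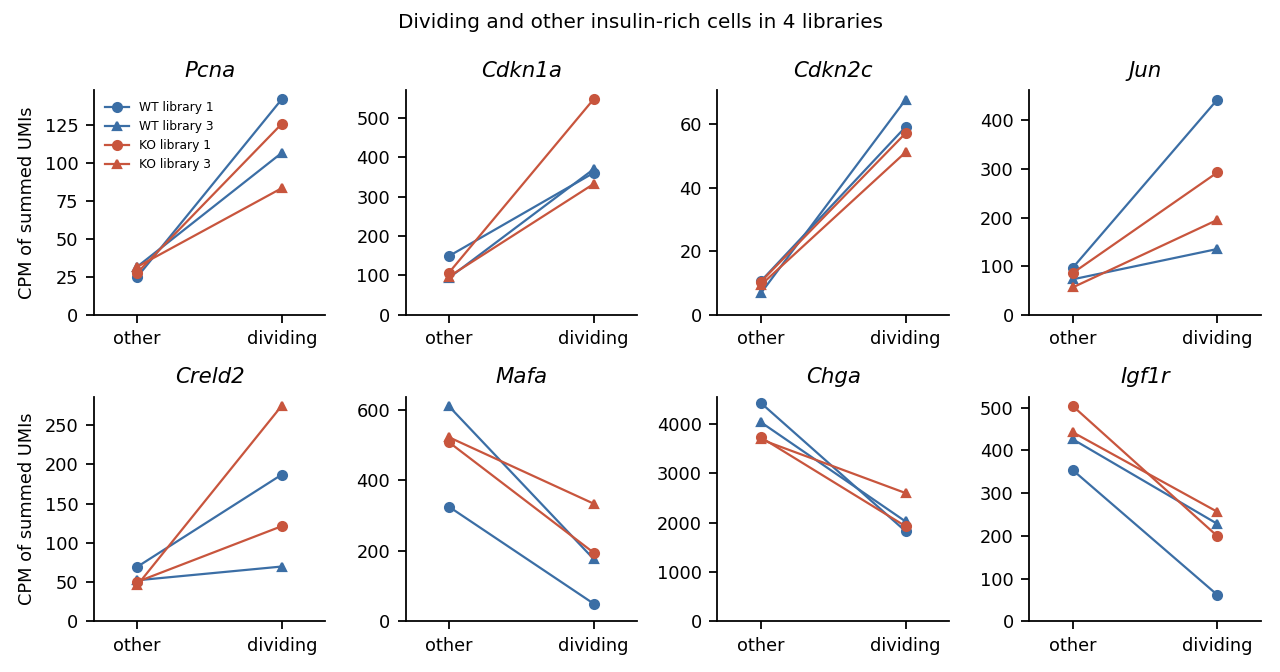
CPM of UMIs summed per library (vertical axis, from 0) in other and dividing insulin-rich cells, for 8 genes, with a line for each of 4 libraries (WT in blue, KO in red). *Pcna*, *Cdkn1a*, *Cdkn2c*, *Jun*, and *Creld2* were higher and *Mafa*, *Chga*, and *Igf1r* lower in dividing cells of every library. *Creld2* in WT library 3 differed least (69.8 against 52.2 CPM), and without its highest dividing cell it stood at 48.3 CPM there, below other cells.

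Some immediate early and ER stress genes were higher in dividing insulin-rich cells, and some ER stress genes were lower. Of 15 tested immediate early genes, 5 were higher and 0 lower, beside 9.26% and 3.99% of all genes. *Jun* stood at 443, 135, 293, and 195 CPM in dividing cells against 96.8, 73.0, 86.0, and 56.4 CPM in other cells (log2 1.79 ± 0.20 SE, adjusted p = 3.50e-07), and 29.5% of its UMIs came from 1 cell. *Junb* had a mean of 245 against 63.0 CPM. Without the highest dividing cell of each library, *Jun* stood at 123, 80.2, 205, and 139 CPM and *Junb* at 84.2, 56.1, 162, and 295 CPM, so *Junb* in WT library 3 was then below other cells (59.2 CPM). *Atf3* had 23.5 against 3.40 CPM, with a UMI in only 10 of the 30 cells and 38.6% of UMIs from 1 of them. *Dusp1*, a phosphatase of MAP kinases, was lower in WT library 1 (9.47 against 22.3 CPM) and higher in the other 3. Of 24 ER stress genes, 8 were higher and 3 lower (8 and 5 at matched depth). The ER chaperone genes *Creld2* (163 against 54.5 CPM, log2 1.61 ± 0.24 SE), *Dnajb11* (132 against 50.8 CPM), *Pdia6* (372 against 186 CPM), and *Hsp90b1* (1037 against 706 CPM) rose, whereas *Xbp1*, a transcription factor that induces such genes, fell (84.1 against 145 CPM, log2 -0.76 ± 0.20 SE). Without its highest dividing cell, *Creld2* in WT library 3 stood at 48.3 CPM, below the 52.2 CPM of other cells.

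Other lists showed fewer calls. In OXPHOS, 8 of 77 genes were higher and 1 lower, close to the 9.26% of all genes, and at matched depth 2 were higher and 3 lower. *Cox5a* of complex IV had 103 against 68.4 CPM and *Ndufb11* of complex I had 227 against 154 CPM. In ribosome biogenesis, 5 of 24 were higher and 1 lower, among them *Nop56* (85.5 against 48.5 CPM) and *Odc1*, the ornithine decarboxylase gene (121 against 56.4 CPM), with *Nme1*, a nucleotide kinase gene, lower (77.3 against 128 CPM). Of 7 14-3-3 genes, *Ywhah* (14-3-3η) was higher, at 116, 142, 158, and 101 CPM against 58.7, 85.6, 78.1, and 86.8 CPM (log2 0.83 ± 0.18 SE, adjusted p = 0.00209), and the other 6 were not called. *Ywhae* stood at 254 against 272 CPM (log2 -0.02 ± 0.14 SE).

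Transcripts of 3 other islet hormones, *Gcg*, *Ppy*, and *Pyy*, were lower in dividing insulin-rich cells, and *Sst* (somatostatin) was not called. *Gcg* (glucagon) stood at 204, 339, 449, and 527 CPM against 1747, 3045, 3962, and 3647 CPM in other insulin-rich cells (log2 -2.95 ± 0.14 SE, adjusted p = 2.64e-13, and -2.54 at matched depth). *Ppy* (pancreatic polypeptide) had a mean of 595 against 3197 CPM (log2 -2.83 ± 0.39 SE). *Pyy* (peptide YY) had 1215 against 2304 CPM (log2 -1.51 ± 0.39 SE, adjusted p = 0.00931), but in KO library 3 it was higher in dividing cells (2783 against 2496 CPM), and DESeq2 did not call it. *Sst* had 3372 against 2120 CPM (log2 -0.11 ± 0.53 SE, adjusted p = 0.923), and in WT library 3 a single dividing cell held 3617 of 3646 *Sst* UMIs. The part of free RNA in this difference was not tested. *Hmox1* (heme oxygenase 1) had 8.70 against 38.1 CPM and *Crybb3* (a crystallin) 13.1 against 42.1 CPM.

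B, T, and mesenchymal cells were compared in the same way in the libraries numbered 2, the only ones with at least 5 members of each, so 1 WT and 1 KO mouse gave these values (n = 2 libraries). Other lineages had too few members. In B cells 1190 of 7810 genes were higher (15.2%) and 995 lower (12.7%), in T cells 944 of 7785 were higher (12.1%) and 544 lower (6.99%), and in mesenchymal cells 205 of 9592 were higher (2.14%) and 100 lower (1.04%). S phase genes were higher in 49 of 50, 49 of 50, and 44 of 50 tested, and G2/M genes in 82 of 83, 82 of 83, and 50 of 72. In the plot of the lists, the cycle lists stand far above the others in all 4 lineages.

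**Figure D5:**
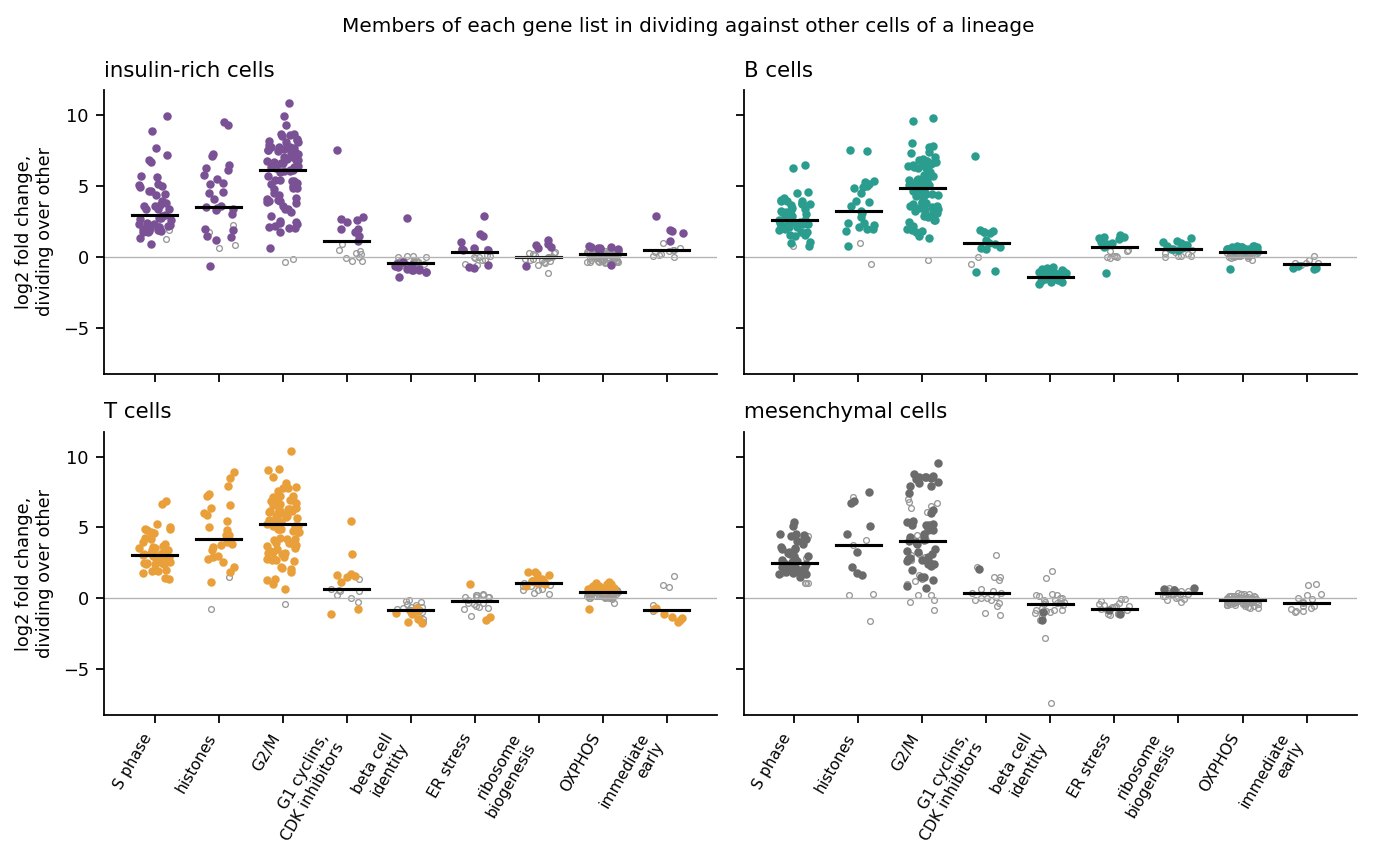
Log2 fold change of dividing over other cells (vertical axis) for members of 9 gene lists in 4 lineages. Filled points were called (adjusted p under 0.05), open points were not, and lines give the median of tested members. S phase, histone, and G2/M medians lie between 2.53 and 6.14 in the 4 lineages, and the β cell identity median lies below 0 in each.

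Dividing B cells carried transcripts of the germinal center, where B cells divide after antigen contact. Of 13 genes of germinal center and plasma B cells, 9 were higher and 0 lower, beside 15.2% and 12.7% of all genes. At matched depth, 7 were higher and 1 lower. *Mef2b*, a transcription factor gene of germinal center B cells, stood at 142 CPM in WT library 2 and 110 CPM in KO library 2 in dividing cells, against 13.2 and 18.4 CPM in other B cells (log2 2.90 ± 0.26 SE, adjusted p = 7.22e-06). It had a UMI in 103 of 146 dividing B cells. *Gcsam* (35.8 against 0.913 CPM) and *Rgs13* (27.6 against 2.54 CPM), which mark the same stage, also rose, *Rgs13* not by DESeq2.

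A smaller set of dividing B cells carried a plasma cell transcript. *Prdm1* (Blimp-1), which drives B cells to become plasma cells, stood at 61.3 and 29.8 CPM against 15.1 and 10.9 CPM (log2 1.68 ± 0.25 SE, adjusted p = 0.000325), but it was not called at matched depth (adjusted p = 0.0553). It had a UMI in 41 of 146 cells. *Mzb1*, an ER protein gene of antibody secretion, stood at 2270 and 1200 CPM against 788 and 902 CPM and was not called at matched depth (log2 0.08). *Ighd*, the IgD heavy chain gene of resting B cells, fell (65.6 against 374 CPM). *Ighg2c*, of the antibody class IgG2c, stood at 12.0 and 32.9 CPM against 379 and 4298 CPM in other B cells (log2 -6.24 ± 0.38 SE). In other B cells of WT library 2, however, 2183 of 2210 *Ighg2c* UMIs came from 1 cell, and without it they stood at 4.65 CPM, below the 12.0 CPM of dividing cells. In KO library 2 the highest of 46 other B cells with an *Ighg2c* UMI gave 19.3% of the UMIs, and without it other cells stood at 3496 CPM.

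In B cells, matching other cells on UMIs lowered the number of calls over all genes, to 697 of 7946 higher (8.77%) and 549 lower (6.91%), and also the number in the growth lists. OXPHOS had 25 of 77 genes higher and 1 lower, but 3 and 1 at matched depth, and ribosome biogenesis had 13 of 23 higher, but 4 at matched depth. ER stress genes were higher in 11 of 21 and lower in 1, and in 5 and 0 at matched depth, with *Hsp90b1* at 2812 and 1575 CPM against 523 and 850 CPM. *Ran*, a GTPase of nuclear transport and spindle assembly, rose in all 4 lineages (B cells, 925 against 339 CPM). *Cdk4* had 175 against 86.0 CPM and was not called at matched depth (adjusted p = 0.0501). *Jun* (61.3 against 98.8 CPM, log2 -0.82 ± 0.25 SE) and *Btg2*, an antiproliferative gene (145 against 226 CPM), fell, and 4 of 10 tested immediate early genes were lower and 0 higher. All 27 tested β cell identity genes were lower in dividing B cells (18 of them at matched depth), with *Iapp* at 3195 against 6402 CPM. The β cell panel share given above stands beside this result, and its part was not tested.

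Dividing T cells included both main classes. At matched depth, 907 of 8506 genes were higher in dividing T cells (10.7%) and 786 lower (9.24%). *Cd8a*, of cytotoxic T cells, without *Cd4* was found in 17 of 33 cells, *Cd4*, of helper T cells, without *Cd8a* in 12, and both in 1. Genes of ribosome biogenesis were higher in 15 of 24 and lower in 0 (16 and 0 at matched depth). *Npm1* (nucleophosmin) stood at 2474 and 3144 CPM in WT and KO library 2 against 1005 and 1257 CPM, *Ncl* (nucleolin) at 2249 and 1857 CPM against 695 and 781 CPM, and *Hspd1*, a mitochondrial chaperone gene, at 759 and 708 CPM against 175 and 237 CPM. In WT library 2, 1 of the 9 dividing T cells gave 64.0% of *Npm1*, 67.1% of *Ncl*, and 75.5% of *Hspd1* UMIs, and without it the levels were 1383, 1147, and 289 CPM. OXPHOS genes were higher in 25 of 77 and lower in 1, and this held at matched depth (21 and 0), with *Cox5a* at 495 against 206 CPM (log2 1.16 ± 0.19 SE).

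Several genes of resting T cells were lower in dividing ones. *Cdkn1b* (p27), a CDK inhibitor of resting cells, stood at 98.0 and 57.9 CPM against 201 and 116 CPM (log2 -1.12 ± 0.26 SE, adjusted p = 0.00668), but it was not called at matched depth (adjusted p = 0.0939). *Pik3ip1*, an inhibitor of PI3 kinase, had 5.04 against 91.3 CPM and *Slfn5* 4.97 against 58.9 CPM, and both also fell in B cells (3.47 against 28.4 CPM and 5.27 against 48.2 CPM). Of 12 immediate early genes, 7 were lower and 0 higher, among them *Egr1* (55.9 against 141 CPM), *Jun* (64.1 against 150 CPM, with 43.8% of UMIs from 1 cell), and *Btg2* (71.9 against 210 CPM). *Ywhah* rose in T cells (253 against 94.4 CPM, log2 1.32 ± 0.23 SE) and B cells (153 against 76.1 CPM, 0.86 ± 0.20 SE). In T cells, 3 of 6 tested 14-3-3 genes were higher and 0 lower (2 and 0 at matched depth), beside 12.1% and 6.99% of all genes. In B cells, 3 of 7 were higher and 1 lower (1 and 0 at matched depth), beside 15.2% and 12.7% of all genes. *Igkc*, an antibody light chain gene that T cells do not make, stood at 88.2 and 151 CPM in dividing T cells against 4698 and 6965 CPM in others (log2 -5.71 ± 0.30 SE); the part of B cell RNA in this difference was not tested.

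The 14 dividing mesenchymal cells, 6 WT and 8 KO, had the fewest calls. *Pcna* stood at 551 and 449 CPM against 92.4 and 116 CPM (log2 2.18 ± 0.23 SE, adjusted p = 1.91e-06), the highest *Pcna* level of the 4 lineages. *Pbk*, a mitotic kinase gene, and *Skp2*, a ubiquitin ligase subunit that removes p27, had means of 71.1 and 60.6 CPM and no UMI in other mesenchymal cells, so they were at least 30.3-fold and 25.8-fold higher (floor of 3 UMIs over the group). *E2f3*, a transcription factor of S phase entry, had 76.5 against 17.5 CPM. The matrix genes *Fbln2*, *Lox*, *Mmp2*, and *Sparcl1* were lower. *Fbln2* had no UMI in dividing cells, against 263 and 29.8 CPM in others of WT and KO library 2. The same floor is 7.82 CPM over dividing cells of both libraries, so the size of the fall rests on WT library 2. *Lox* had 7.72 against 113 CPM. *Cxcl10*, an interferon-induced chemokine, stood at 5.45 and 59.9 CPM against 655 and 422 CPM (log2 -4.08 ± 0.42 SE), with 53.8% of the UMIs of dividing cells from 1 cell. DESeq2 did not call *Fbln2*, *Lox*, or *Mmp2*. In *Fbln2*, *Lox*, and *Sparcl1*, other cells of WT library 2 were several-fold above those of KO library 2. Neither edgeR nor DESeq2 called any of 77 OXPHOS, 6 14-3-3, or 15 immediate early genes here, and 7, 1, and 5 of them had an unadjusted p under 0.05.

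A shared core of genes was higher in division in all 4 lineages. Of 6317 genes tested in each, 160 were called higher in all, which is 15.95% of the calls in insulin-rich cells, 13.4% in B cells, 16.9% in T cells, and 78.0% in mesenchymal cells. S phase, histone, or G2/M lists held 101 of them and 59 were in none. Insulin-rich and B cells shared 504 higher genes (65.2% and 45.5% of the calls of each among genes tested in both) and 138 lower genes (43.3% and 16.7%). *Ezh2* was in the core, at 68.4, 203, 216, and 131 CPM in dividing insulin-rich, B, T, and mesenchymal cells. Lower in all 4 lineages were 5 genes, named after their values were seen: *Iapp*, *Pcsk2*, the metallothioneins *Mt1* and *Mt2*, and *Lpl* (lipoprotein lipase). *Iapp* and *Pcsk2* are on the β cell identity list. RNA of the β cell panel took medians of 2.52%, 3.99%, and 1.70% of UMIs in dividing B, T, and mesenchymal cells. Its part in the fall of these genes outside insulin-rich cells was not tested. *Mt2* fell by 1.38 on the log2 scale in insulin-rich cells, 1.04 in B cells, 1.34 in T cells, and 1.74 in mesenchymal cells, and in the last it was not called at matched depth. *Mt1* was not called at matched depth in B cells.

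The difference of division itself was set against that in B cells. Of 11461 genes, 470 had a larger fold change in insulin-rich cells (4.1%) and 110 a smaller one (0.96%), but the median gene was shifted by 0.23 on the log2 scale. With doublet calls left out the median became -0.13 and the split 240 to 463, so the genes described here, chosen after their values were seen, are ones far from the shift. *Cdkn1a* differed by 3.13 ± 0.42 SE (log2, adjusted p = 0.000385): it stood at 7.71 and 3.09 CPM in dividing B cells of WT and KO library 2, against 9.78 and 19.1 CPM in others, with a UMI in 13 of 146 dividing cells. *Jun* (2.61 ± 0.35 SE), *Junb* (2.49 ± 0.45 SE), and *Atf3* (6.19 ± 1.04 SE) also rose more in insulin-rich cells, and 5 of 15 immediate early genes were called in this direction and 0 in the other. *Top1* (DNA topoisomerase 1) rose in dividing B cells (859 against 235 CPM) and not in insulin-rich cells (109 against 131 CPM), with a difference of -1.99 ± 0.27 SE. *Nme1* rose in B cells and fell in insulin-rich cells (-1.48 ± 0.27 SE, adjusted p = 0.00428). *Kpna2* (-3.27 ± 0.60 SE), which was not called in insulin-rich cells, and *Rrm2*, a ribonucleotide reductase subunit (-2.28 ± 0.50 SE), rose more in B cells. Insulin-rich and B cell values came from different mice, so lineage and mouse cannot be told apart.

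KO and WT were compared within dividing insulin-rich cells, 18 cells of KO libraries 1 and 3 against 12 of WT libraries 1 and 3. The study had removed KO β cells with incomplete deletion of *Ywhaz* before its own comparison. Here KO cells were kept with or without a *Ywhaz* UMI, and only 1 of the 18 had none, so the 2 comparisons rest on unlike cells. Of 11838 genes, 13 were higher in KO (0.11%) and 10 lower (0.0845%), and 529 had an unadjusted p under 0.05 (4.47%). Neither edgeR nor DESeq2 called any of 50 S phase, 83 G2/M, 77 OXPHOS, or 24 ER stress genes, of which 4, 19, 1, and 2 had an unadjusted p under 0.05. The median log2 difference of the G2/M list was -0.57. *Pcna* stood at 142 and 107 CPM in WT and 126 and 83.5 CPM in KO (log2 -0.63 ± 0.37 SE, adjusted p = 0.993). In 17 of the 23 called genes, more than 50% of UMIs came from 1 cell. Examples are *Mgp* (matrix Gla protein), with 562 of 564 UMIs in 1 cell of WT library 3, *Mrpl9*, with 539 of 573 UMIs in 1 cell of KO library 1, and *Igfbp5*, with 124 of 129.

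*Ins1*, *Nfkbia*, and *Ppy* were among the called genes with UMIs in most cells. *Ins1* stood at 97309 and 119594 CPM in WT and 49624 and 59989 CPM in KO, with UMIs in all 30 cells (log2 -1.30 ± 0.25 SE, adjusted p = 0.00182), and in other insulin-rich cells it stood at 84312 and 103594 CPM in WT and 61534 and 59101 CPM in KO. The Cre of both genotypes was expressed from *Ins1*, and its part in the *Ins1* values was not tested. *Nfkbia*, the inhibitor of NF-κB, stood at 42.6 and 26.7 CPM in WT and 304 and 296 CPM in KO (log2 2.77 ± 0.40 SE), and *Ppy* at 85.3 and 125 CPM in WT and 1062 and 1108 CPM in KO (3.08 ± 0.35 SE), with 27.8% and 37.6% of UMIs from 1 cell. Within KO libraries 1 and 3, the highest cell gave 80.8% and 73.8% of *Ppy* UMIs, and without it *Ppy* stood at 247 and 339 CPM. *Nfkbia* and *Ppy* were the only genes of 10847 for which the difference between dividing and other cells was called as unequal in KO and WT (0.0184%). This number was not stable, with 5 to 36 calls when a library was left out, and on simulated counts this comparison recovered 4% of 2-fold and 56% of 4-fold changes. In other insulin-rich cells *Nfkbia* stood at 34.1 to 54.9 CPM in the 4 libraries.

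*Ywhaz* was not called in dividing cells. It stood at 75.8 and 168 CPM in dividing cells of WT libraries 1 and 3 and at 73.2 and 43.6 CPM in KO libraries 1 and 3, so KO library 1 came close to WT library 1 (log2 -1.32 ± 0.37 SE, adjusted p = 0.224). In other insulin-rich cells the values were 126 and 161 CPM in WT and 24.3 and 24.0 CPM in KO. The change with division was 1.33 larger in KO than in WT on the log2 scale (± 0.36 SE, adjusted p = 0.587), which was not called. A *Ywhaz* UMI was found in 8 of 9 dividing cells in KO library 1 and 9 of 9 in KO library 3, against 31.6% and 21.1% of other insulin-rich cells there, which had medians of 19951 and 2512 UMIs against 40890 and 56035 in the dividing cells.

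Cells of mixed lineage made up the rest. The 22 cells with insulin and another panel had 8305 to 82560 UMIs (median 36070) and 10.1% to 50.1% of UMIs on insulin, and 10 of them carried the B cell panel alone beside insulin. The 20 cells with several panels had a median of 27740 UMIs, and 13 of them carried the B and T cell panels. The 10 cells with no panel and too little hormone RNA had 3505 to 30376 UMIs. Cells with several panels that were dividing were 8.16% of 245 cells of that kind, and cells with insulin and another panel were 0.563% of 3910. Adding the cells that carried insulin beside another panel left the genotypes indistinct, at 0.364% in WT and 0.305% in KO (exact p = 0.8).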

How the data were processed

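Islets of 6 mice were profiled by droplet single-cell RNA-Seq (Chromium 3′ v3.1). The deposited values are UMI counts per gene and barcode, made by the authors with Cell Ranger 6.0.2 on mm10 and not normalized; the submitters' notes also name Seurat. Barcodes with at least 500 genes and at most 10% mitochondrial UMIs were kept. Lineages came from marker panels, not from an annotation by the authors.

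UMIs were summed per library, lineage, and state, for libraries with at least 5 dividing cells, and compared with edgeR 4.0.16 (R 4.3.3, limma 3.58.1), using TMM, the quasi-likelihood test, and library as a block, for genes detected in over 15% of the cells of either group. B, T, and mesenchymal cells were fitted together, a fit chosen after the data were seen, because fewer libraries than planned had 5 members. DESeq2 1.42.0 was an alternative. All adjusted p values are Benjamini-Hochberg values over all genes tested. Shares were compared by exact permutation of libraries (scipy 1.17.1, pandas 2.3.3, numpy 2.4.6, Python 3.11.15). Each library is 1 mouse.

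Doublets were scored per library with Scrublet in scanpy 1.11.5. Where the automatic threshold marked under 0.5% of cells, which was so in 5 libraries, the top scores at 0.8% per 1000 barcodes were taken instead; these cells were kept in the comparisons. Same-numbered WT and KO libraries deviated together (Pearson r of 0.519, 0.838, and 0.616 over 10980 genes in other insulin-rich cells), so the numbers were treated as pairs. KO library 1, however, correlated more with WT library 3 (0.582) than with WT library 1 (0.519). These values therefore do not establish the pairs numbered 1 and 3.

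On simulated counts with 200 changed genes of 10847, the comparison within insulin-rich cells recovered 49% of 2-fold and 99% of 4-fold changes. For KO against WT, with 11838 genes, it recovered 8% and 72%. For the difference of division between KO and WT, with 10847 genes, it recovered 4% and 56%. The simulation gave every gene the same dispersion and changed only genes above a set level. It did not model genes whose UMIs come mostly from a single cell, so recovery in the data may be lower.

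The members, marker panels, and gene lists were chosen with earlier results of these data known. Genes were named by a rule: the selecting genes, the 14-3-3 genes, per list the 3 highest and the 3 most changed called members, up to 10 most changed called genes per direction of at least 20 CPM, and up to 10 genes with the lowest adjusted p for each difference between lineages or genotypes. *Mef2b*, *Prdm1*, *Cdkn1b*, *Dusp1*, *Pdia6*, *Nme1*, and *Top1* were added after their values were seen. Results for some genes are not reported here.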

Additional observations from a re-analysis of the deposited data

Results flagged for a closer look

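The difference between dividing and other cells was tested as unequal in insulin-rich and B cells, and 10 genes with the lowest adjusted p are given here. Their values come from different mice, and the median gene was shifted by 0.23 on the log2 scale. The difference (insulin-rich minus B, log2) was 4.60 for *Fam111a*, which stood at 30.7 against 1.04 CPM in dividing and other insulin-rich cells and at 137 against 101 CPM in B cells. It was 3.52 for *Pmf1*, a kinetochore gene (38.2 against 3.19 CPM, and 94.1 against 75.05 CPM in B cells). *Cenpa*, the centromeric histone gene, differed by 4.06 (63.1 against 0.573 CPM, and 204 against 27.1 CPM). *Nrm* differed by 5.25 (22.1 against 0.498 CPM, and 35.5 against 25.6 CPM). *Uhrf1*, which keeps DNA methylation through replication, differed by 5.06 (25.2 against 0.0517 CPM, and 105 against 7.38 CPM). *Cks2*, a CDK subunit, differed by 3.08 (119 against 1.25 CPM, and 268 against 20.8 CPM). In each of these 6 genes, other B cells had a higher level than other insulin-rich cells. *Dapl1* differed by 5.27, *Cd200* by 2.74, *Ier5* by 3.08, and *2410006H16Rik* by 1.95. The last 3 were lower in dividing than in other B cells, with *Cd200* at 13.5 against 47.8 CPM, and higher in dividing than in other insulin-rich cells, at 40.8 against 25.3 CPM.

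The same difference was tested as unequal in KO and WT insulin-rich cells, and it was called for *Ppy* (3.08 higher in KO on the log2 scale) and *Nfkbia* (3.201 higher in KO). In dividing cells, 1 cell gave 37.6% of the *Ppy* UMIs and 27.8% of the *Nfkbia* UMIs.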

How the results depend on the processing

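The share of dividing insulin-rich cells, KO minus WT, was -0.0513 percentage points and changed sign with at least 2 of the 6 genes (0.0287) and in cells of at least 20000 UMIs (0.0794); leaving out each library gave -0.183 to 0.0723, and without both libraries numbered 2 it was -0.101. No setting reached a low p, and 3 against 3 cannot go under 0.1. Leaving out a library moved the calls in insulin-rich cells from 1437 to between 934 and 1219. B cell calls were 950 with DESeq2 and 1246 at matched depth, against 2185, and T cell calls 891 with DESeq2, against 1488. Leaving out a library could not be fitted there, since 1 WT and 1 KO library were used. Scaling to total UMIs, added after the data were seen, moved the split of higher to lower calls to 1555 and 719 in B cells, 1127 and 401 in T cells, and 220 and 59 in mesenchymal cells. The difference between insulin-rich and B cells had 580 calls, 1491 with no filter, 350 scaled to total UMIs, and 143 to 697 with a library left out (143 without WT library 2, 697 without WT library 1). KO against WT had 23 calls, 5 with DESeq2, 47 with no filter, 27 with the replicate number as a block (pairing), and 15 to 164 with a library left out (15 without KO library 3, 164 without WT library 3). The difference of division between KO and WT had 2 calls, 28 with no filter, 4 scaled to total UMIs, and 5 to 36 with a library left out (5 without KO library 3, 36 without WT library 1). *Igfbp5* in KO against WT ran from -8.85 to 2.97, the latter without WT library 3, which held the cell with most of its UMIs. In insulin-rich cells paired by number, the exact p for the share was 0.5. Of the values of single genes under all settings, 1209 kept direction and side of the threshold, 70 lost the call, 2 gained it, and 1 reversed. The setting that left out KO cells with a *Ywhaz* UMI was not run, because 17 of 18 had one. The cause of these differences was not tested.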
